A study of Mus musculus with 23 samples.

Results

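The mitophagy genes described here are 10 genes of the deposited hippocampal expression table: Pink1, Bnip3, Bnip3l, Fundc1, Bcl2l13, Phb2, Optn, Sqstm1, Map1lc3b and Tfeb. They were taken by gene symbol out of 19733 genes, and all 10 had the mean of 0.1 FPKM required for testing, which left 15985 genes. RNA of the hippocampus was sequenced from 23 wild-type male C57BL/6J mice, acquired at 6 weeks of age. The 9 Ctrl mice received an AIN93M control liquid diet, the 7 EtOH mice the ethanol version of that diet, and the 7 EtOH-UA mice the ethanol diet with urolithin A (UA) at 200 mg/kg/day. The treatment lasted 16 weeks and was followed by behavioral tests. Ctrl and EtOH mice were gavaged daily with the CMC-Na vehicle in which UA was given, no group received UA with the control diet, and each library is 1 mouse. The expression unit is FPKM, which counts fragments relative to transcript length and library size, so levels can be compared between genes.

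Mitophagy is the removal of damaged or surplus mitochondria by autophagy, in which a double membrane closes around the organelle and delivers it to the lysosome. On depolarized mitochondria the kinase PINK1 accumulates and starts the ubiquitin marking of the outer membrane that is read by the adaptors optineurin and p62, which bind LC3 on the growing membrane. Receptors anchored in the outer membrane itself (BNIP3, its relative NIX, FUNDC1 and BCL2L13) bind LC3 without that mark. Prohibitin 2, on the inner membrane, binds LC3 once the outer membrane has ruptured. The transcription factor TFEB switches on lysosome and autophagy genes. UA, which gut bacteria form from ellagitannins, is known as an inducer of mitophagy. A transcript level is not a measure of mitophagy itself, much of which is set by protein turnover and phosphorylation.

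The 250 bases before the transcription start are shown for Bnip3, which had the smallest exact p among the 10 genes in EtOH against Ctrl mice, and for the 4 genes that varied together over mice (Map1lc3b, Pink1, Phb2 and Sqstm1). The sequences come from RefSeq on GRCm38.p6, read on the strand of the gene from 5′ to 3′. Capitals mark, on either strand, the E-box CACGTG, the ACGTG form of the hypoxia element core, the xenobiotic element core GCGTG and the antioxidant element TGACNNNGC.
Bnip3 (chr7:138909507-138909756, minus strand): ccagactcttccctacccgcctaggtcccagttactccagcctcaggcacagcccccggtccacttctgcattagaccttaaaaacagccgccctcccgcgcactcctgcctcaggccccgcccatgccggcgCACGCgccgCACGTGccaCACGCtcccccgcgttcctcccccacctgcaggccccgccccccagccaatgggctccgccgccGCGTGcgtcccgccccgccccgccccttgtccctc
Map1lc3b (chr8:121590188-121590437, plus strand): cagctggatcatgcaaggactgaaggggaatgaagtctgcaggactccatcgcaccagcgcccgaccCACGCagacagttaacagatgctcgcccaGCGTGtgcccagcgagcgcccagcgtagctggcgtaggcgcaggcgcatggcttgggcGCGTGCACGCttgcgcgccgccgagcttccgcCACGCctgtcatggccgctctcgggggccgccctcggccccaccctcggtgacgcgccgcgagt
Pink1 (chr4:138326297-138326546, minus strand): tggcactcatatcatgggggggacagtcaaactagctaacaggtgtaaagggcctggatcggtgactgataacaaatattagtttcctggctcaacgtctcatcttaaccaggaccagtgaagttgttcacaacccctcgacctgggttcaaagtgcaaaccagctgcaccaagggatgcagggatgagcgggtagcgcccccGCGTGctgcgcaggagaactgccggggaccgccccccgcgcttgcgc
Phb2 (chr6:124712039-124712288, plus strand): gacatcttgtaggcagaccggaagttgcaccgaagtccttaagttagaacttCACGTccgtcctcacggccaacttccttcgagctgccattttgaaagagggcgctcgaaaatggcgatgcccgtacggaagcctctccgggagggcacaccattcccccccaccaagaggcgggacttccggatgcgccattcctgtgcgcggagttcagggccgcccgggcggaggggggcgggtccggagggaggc
Sqstm1 (chr11:50210821-50211070, minus strand): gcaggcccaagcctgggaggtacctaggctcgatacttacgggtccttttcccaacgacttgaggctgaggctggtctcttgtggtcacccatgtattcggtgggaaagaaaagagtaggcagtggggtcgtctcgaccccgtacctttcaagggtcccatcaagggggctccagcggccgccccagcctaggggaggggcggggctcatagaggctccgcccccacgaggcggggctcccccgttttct

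Windows of this length were found for 9 of the 10 genes (11 windows, since Tfeb has 3), and not for Bnip3l. The window of Bnip3, which is known as a target of the hypoxia factor HIF-1, held 1 CACGTG, starting 108 bases before the start site, which contains ACGTG on both strands, and 3 GCGTG. Map1lc3b held 5 GCGTG, Pink1 held 1 GCGTG, Phb2 held 1 ACGTG, and none of the letters searched was found in the window of Sqstm1. Of the other genes, Bcl2l13 held 2 TGACNNNGC and 1 GCGTG, Optn held 2 GCGTG, and 2 of the 3 windows of Tfeb held 1 GCGTG each. The longer motif TCACGTGA, which contains CACGTG and is the usual form of the element bound by TFEB, was in none of the 11 windows. Over all 32851 windows, TCACGTGA was in 0.785%, CACGTG in 6.02%, ACGTG in 16.6%, GCGTG in 28.2% and TGACNNNGC in 10.2%. None of the motifs was in all 4 windows of the genes that varied together.

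The 23 libraries were labelled as hippocampus. Of the markers listed, 10 of 10 for neurons and 8 of 8 for hippocampus were found, none at 0 in all mice of a group. The same held for 12 of 12 choroid plexus markers, so finding the markers does not by itself identify the tissue. The summed FPKM of a library ranged from 330456 to 361354 in Ctrl mice, from 327896 to 366930 in EtOH mice and from 333801 to 404609 in EtOH-UA mice, and the 2 highest sums of all, 404609 and 379518, were EtOH-UA libraries. Choroid plexus markers differed most, with summed levels from 41.5 to 3377 FPKM in Ctrl, from 132.7 to 6644 in EtOH and from 50.6 to 8548 in EtOH-UA mice. The steps between low values set 1 FPKM equal to about 17.0 fragments on each kilobase, the median of 16 genes with 1 transcript. In bulk tissue, fewer cells of a type and less RNA per cell cannot be told apart.

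Levels spanned almost 2 orders of magnitude. Sqstm1, which encodes p62, was highest at a mean of 194 FPKM over the 23 mice, above 98.5% of the genes tested. Pink1 followed at 146 FPKM, and then Map1lc3b, which encodes the LC3B that coats the growing membrane, at 68.7 FPKM. The receptors Bnip3 and Bnip3l (NIX) stood at 56.7 and 48.0 FPKM, the inner-membrane receptor Phb2 at 36.3 FPKM and Fundc1 at 17.5 FPKM. Bcl2l13 and Optn were near the middle of all genes, at 8.67 and 8.54 FPKM, and Tfeb was lowest at 2.18 FPKM, above 27.8% of genes. The order of neighbours held in 23 of 23 mice for every step except Bcl2l13 and Optn, where Bcl2l13 was higher in 11 of 23 mice, so those genes were not separable in level. Over all mice the ranges of neighbouring genes overlapped at 5 of the 9 steps, as between Bnip3 and Bnip3l.

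**Figure D1:**
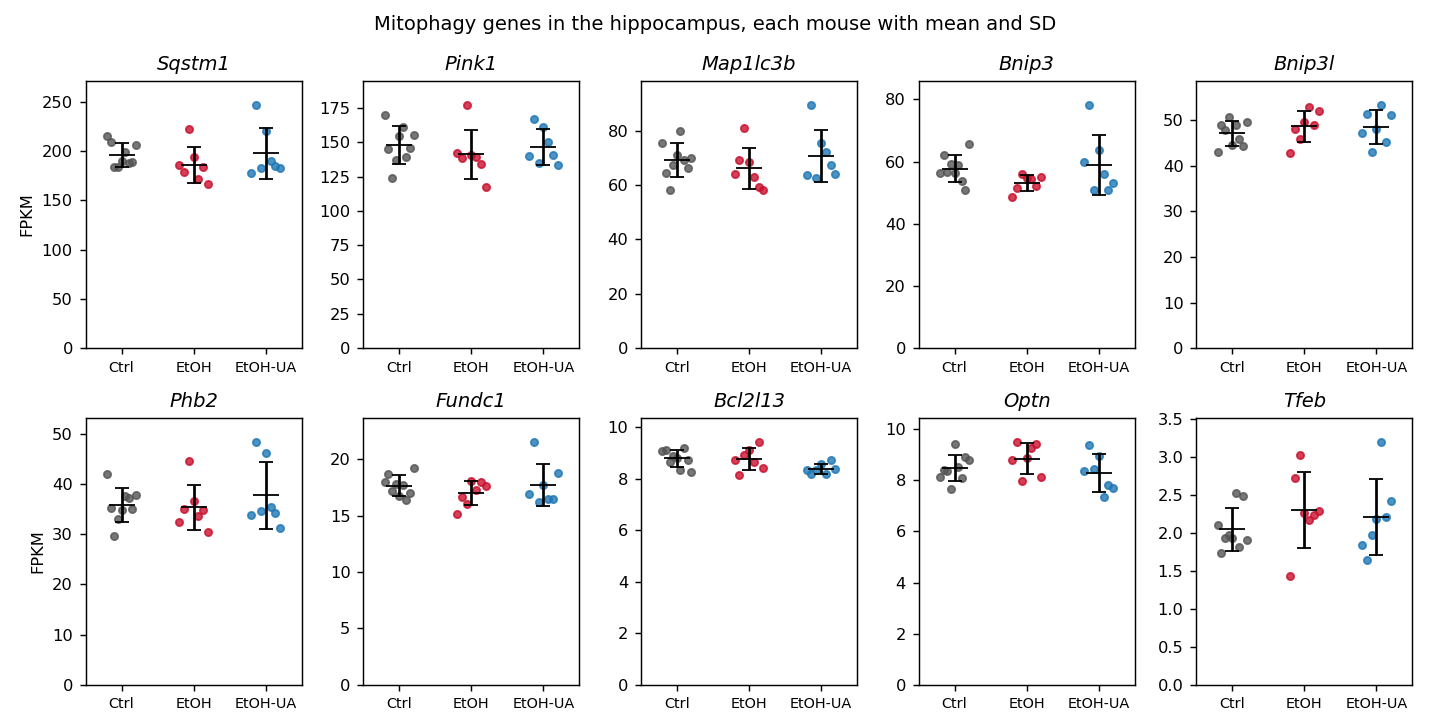
FPKM of the 10 mitophagy genes (y axis, from 0) in each of the 9 Ctrl, 7 EtOH and 7 EtOH-UA mice (points), with the mean and SD of each group in black and panels ordered by mean level. The 3 groups overlap for every gene, and 1 EtOH-UA mouse stands highest for Sqstm1 (246 FPKM), Bnip3 (78.1 FPKM), Map1lc3b (89.4 FPKM), Phb2 (48.4 FPKM) and Fundc1 (21.5 FPKM).

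Genes differed in how much mice of a group varied. Tfeb varied most, with a pooled coefficient of variation within groups of 19.8%, and about 86.4 fragments per mouse would by counting alone give 10.8%. Phb2 (13.7%), Map1lc3b (11.5%), Bnip3 (10.8%) and Pink1 (10.4%) varied several times more than the 1.31% to 3.51% that counting alone would give. Bcl2l13 was the steadiest gene, at 3.80% against 3.13% from counting.

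PINK1 is the kinase that senses depolarized mitochondria. Pink1 spanned 124 to 169.9 FPKM (median 146) in Ctrl, 117 to 177 (median 139) in EtOH and 133 to 167 (median 141) in EtOH-UA mice. The groups overlapped almost fully, although only 1 of 7 EtOH mice was above the Ctrl median. The difference of EtOH from Ctrl mice was −0.07 ± 0.07 on the log2 scale (SE) and that of EtOH-UA from EtOH mice 0.06 ± 0.08, with exact permutation p = 0.379 and p = 0.505. With 1 mouse left out at a time these lay between −0.126 and −0.0272 and between 0.0142 and 0.113, and the first pair of bounds came without EtOH mouse 3 and without EtOH mouse 7.

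Of the receptors on the outer membrane, Bnip3, whose transcript is known to respond to hypoxia, showed the smallest exact p for the ethanol diet. The gene lies at chr7:138890836-138909506 on the minus strand of GRCm38.p6. Its level spanned 50.8 to 65.8 FPKM (median 56.6) in Ctrl, 48.6 to 56.0 (median 54.2) in EtOH and 50.8 to 78.1 (median 56.1) in EtOH-UA mice. All 7 EtOH mice lay below the Ctrl median, although the ranges overlapped. The fold of EtOH over Ctrl was 0.922, with a 95% interval of 0.833 to 1.02 (log2 difference −0.12 ± 0.07 SE). The 2-sided exact permutation test gave p = 0.0243 and limma p = 0.113, with an adjusted p = 0.999. In EtOH-UA against EtOH mice the log2 difference was 0.13 ± 0.08 (SE), with an interval of the fold of 0.985 to 1.22 and exact permutation p = 0.144, and 4 of 7 EtOH-UA mice were above the EtOH median. Without the 2 EtOH-UA libraries of highest summed FPKM, which held the 2 highest Bnip3 levels of that group, the log2 difference of EtOH-UA from EtOH mice was 0.03, and that of EtOH-UA from Ctrl mice turned from 0.02 to −0.09. Leaving out the library of highest sum alone gave 0.0643 against EtOH mice.

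Bnip3l, which encodes NIX, the receptor that clears mitochondria from maturing red cells, spanned 42.9 to 50.8 FPKM (median 47.8) in Ctrl, 42.9 to 53.0 (median 48.9) in EtOH and 43.0 to 53.3 (median 48.2) in EtOH-UA mice. The 3 ranges were nearly the same, and the folds were 1.03 for EtOH over Ctrl and 0.997 for EtOH-UA over EtOH, with intervals of 0.958 to 1.11 and 0.922 to 1.08. Fundc1, a receptor that also acts at contacts with the endoplasmic reticulum, spanned 16.4 to 19.2 FPKM (median 17.8) in Ctrl, 15.2 to 18.1 (median 17.3) in EtOH and 16.2 to 21.5 (median 16.9) in EtOH-UA mice. The folds of Fundc1 were 0.962 for EtOH over Ctrl (0.889 to 1.04) and 1.04 for EtOH-UA over EtOH (0.957 to 1.13).

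Bcl2l13, the mammalian counterpart of a yeast mitophagy receptor, differed little but in the same direction in most mice. The gene lies at chr6:120836206-120892842 on the plus strand. It spanned 8.27 to 9.21 FPKM (median 8.82) in Ctrl, 8.16 to 9.43 (median 8.74) in EtOH and 8.17 to 8.73 (median 8.36) in EtOH-UA mice. None of the 7 EtOH-UA mice was above the Ctrl median or the EtOH median, although all ranges overlapped. The fold of EtOH-UA over Ctrl was 0.955 (0.904 to 1.01), with exact permutation p = 0.0142, limma p = 0.0985 and limma adjusted p = 0.999. Against EtOH mice the fold of EtOH-UA was 0.957 (0.903 to 1.01), with exact permutation p = 0.0530. Reads of Bcl2l13 overlap Bid on the opposite strand (4.94 FPKM), and whether the libraries kept strand is not given in the sources used here.

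Prohibitin 2 is the receptor of the inner membrane, reached once the outer membrane has ruptured. Phb2 spanned 29.8 to 42.0 FPKM (median 35.2) in Ctrl, 30.5 to 44.6 (median 34.9) in EtOH and 31.4 to 48.4 (median 34.7) in EtOH-UA mice. The medians lay within 1 FPKM of each other while 2 EtOH-UA mice, at 48.4 and 46.1 FPKM, stood above the other 5, which reached 35.5 FPKM. The folds were 0.986 for EtOH over Ctrl (0.869 to 1.12) and 1.06 for EtOH-UA over EtOH (0.928 to 1.21).

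The adaptors differed in level by more than 20 times. Optn, which encodes the adaptor phosphorylated by TBK1, spanned 7.65 to 9.42 FPKM (median 8.41) in Ctrl, 7.98 to 9.50 (median 8.86) in EtOH and 7.33 to 9.40 (median 8.36) in EtOH-UA mice. The 3 ranges overlapped almost fully. The fold of EtOH over Ctrl was 1.04 (0.963 to 1.13), and that of EtOH-UA over EtOH was 0.936 (0.860 to 1.02, exact permutation p = 0.139, and a log2 difference of −0.16 in place of −0.10 without the 2 EtOH-UA libraries of highest summed FPKM). Sqstm1 spanned 183 to 215 FPKM (median 190.0) in Ctrl, 166 to 222 (median 184) in EtOH and 177 to 246 (median 185) in EtOH-UA mice. p62 is itself degraded by autophagy, and its transcript showed folds of 0.948 for EtOH over Ctrl (0.859 to 1.04) and 1.06 for EtOH-UA over EtOH (0.956 to 1.18). Sqstm1 overlaps Mrnip on the opposite strand (8.46 FPKM).

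Map1lc3b spanned 58.3 to 80.1 FPKM (median 69.3) in Ctrl, 58.3 to 80.9 (median 63.9) in EtOH and 62.7 to 89.4 (median 67.4) in EtOH-UA mice. Of 7 EtOH mice, 1 was above the Ctrl median, and of 7 EtOH-UA mice, 5 were above the EtOH median. The folds were 0.955 for EtOH over Ctrl (0.856 to 1.07) and 1.07 for EtOH-UA over EtOH (log2 difference 0.09 ± 0.08 SE). The latter difference was 0.00339 without the 2 EtOH-UA libraries of highest summed FPKM. The gene overlaps Zcchc14 on the opposite strand (18.1 FPKM).

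TFEB is regulated mainly by its movement into the nucleus, which a transcript level does not show. Tfeb spanned 1.74 to 2.53 FPKM (median 1.94) in Ctrl, 1.43 to 3.03 (median 2.26) in EtOH and 1.65 to 3.20 (median 2.19) in EtOH-UA mice. Although 6 of 7 EtOH mice were above the Ctrl median, the EtOH group also held the lowest value of all. The fold of EtOH over Ctrl was 1.11 with a 95% interval of 0.918 to 1.33 and exact permutation p = 0.272, and that of EtOH-UA over EtOH was 0.962 (0.790 to 1.17). Without the EtOH mouse of lowest Tfeb the log2 difference of EtOH from Ctrl mice was 0.25 in place of 0.15 (limma adjusted p = 1.0).

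Over all 10 genes, the differences between mice on the ethanol and the control diet were small. In EtOH against Ctrl mice 3 of 10 were higher and 7 lower, with a median log2 difference of −0.04 beside −0.0030 over all genes tested, of which 48.6% were higher. With 1 mouse left out at a time this median lay between −0.0602 (without EtOH mouse 3) and −0.0103 (without EtOH mouse 7). By limma 0 of 10 genes had an adjusted p under 0.05, as did 0% of the 15985 genes, and 0 of 10 had an unadjusted limma p under 0.05 beside 3.05% of all genes. The exact permutation test gave p under 0.05 for 1 of 10 (Bnip3) beside 3.58% of all genes. The 95% intervals of all 10 lay between folds of 0.833 and 1.33, and without Tfeb the upper bound was 1.13.

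UA given with ethanol was compared with ethanol alone, the comparison in which only UA differs. In EtOH-UA against EtOH mice 6 of 10 genes were higher, with a median log2 difference of 0.06 beside 0.0033 over all genes tested, of which 51.2% were higher. By limma 0 of 10 had an adjusted p under 0.05 (0% of all genes, lowest adjusted p of the 10 genes 0.900), 0 of 10 an unadjusted p under 0.05 (3.27% of all genes), and 0 of 10 an exact permutation p under 0.05 (3.1% of all genes). The intervals lay between folds of 0.790 and 1.22, and between 0.860 and 1.22 without Tfeb. Without the 2 EtOH-UA libraries of highest summed FPKM, 3 of 10 genes were higher and the median became −0.01, and with 1 mouse left out at a time it lay between 0.0161 (without the library of highest sum) and 0.0787. With the summed FPKM as a covariate 3 of 10 were higher, and after quantile normalization 5 of 10.

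EtOH-UA against Ctrl mice, which share the EtOH-UA mice with the preceding comparison and the Ctrl mice with the first, had 7 of 10 genes higher and a median log2 difference of 0.01 beside 0.0024 over all genes. Again 0 of 10 had a limma adjusted p under 0.05 (0% of all genes) and 0 of 10 an unadjusted one (3.08% of all genes). The exact permutation test gave p under 0.05 for 1 of 10 (Bcl2l13) beside 2.9% of all genes. The intervals lay between folds of 0.884 and 1.28. Without the 2 libraries named above, 2 of 10 were higher and the median was −0.07, and after quantile normalization 5 of 10 were higher.

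**Figure D2:**
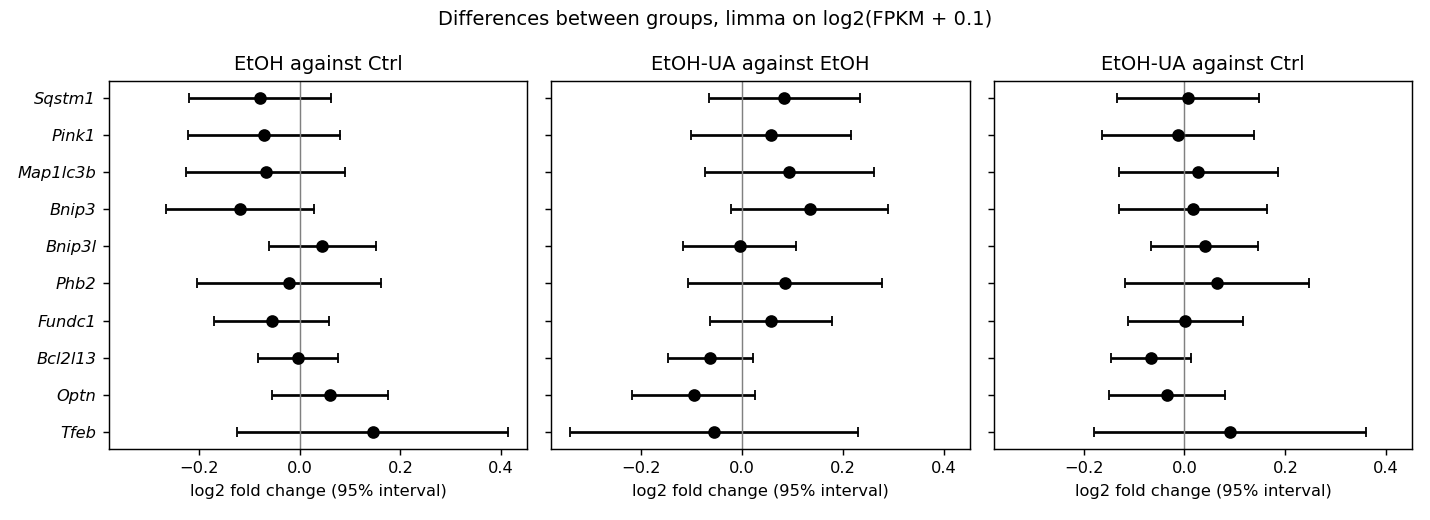
Log2 fold change (x axis) of each mitophagy gene in the 3 comparisons, as points with 95% intervals from limma on log2(FPKM + 0.1), genes ordered by level. All 30 intervals include 0, Bnip3 lies farthest below 0 in EtOH against Ctrl mice (−0.12), and Tfeb has the widest intervals.

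Mice of the same group differed, and these differences were shared between genes. After group means were removed, 45 pairs of the 10 genes were compared over 23 mice, and 8 pairs had an adjusted permutation p under 0.05 for both Pearson's r and Spearman's rho, all 8 positive. Pink1, Map1lc3b, Phb2 and Sqstm1 formed all 6 pairs of 1 set. The highest was Sqstm1 with Phb2 (r = 0.91, rho = 0.84, both with permutation p = 1e-05, the smallest that 100000 permutations can give, and 0.84 without the 2 farthest mice). Pink1 followed Map1lc3b (r = 0.89, rho = 0.86, permutation p = 1e-05 for both, 0.87 without the 2 farthest mice) and Phb2 (r = 0.87, rho = 0.78, permutation p = 1e-05 for both, 0.85 without the 2 farthest). The kinase, the LC3 gene, an adaptor and the inner-membrane receptor were thus high and low in the same mice, as were many other genes. Of 12903 genes averaging 1 FPKM or more, 14.5% had r of at least 0.7 with Pink1 and 15.3% with Map1lc3b. The shares were 19.1% with Phb2 and 18.6% with Sqstm1.

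The other 2 of the 8 pairs joined outer-membrane receptors. Of the 12903 genes, 5.47% had r of at least 0.7 with Bnip3, 1.02% with Fundc1 and 0.698% with Bnip3l. Bnip3 followed Fundc1 (r = 0.76, permutation p = 5e-05, rho = 0.62, permutation p = 0.0018, 0.51 without the 2 farthest mice), and Bnip3l followed Fundc1 (r = 0.59, permutation p = 0.0024, rho = 0.60, permutation p = 0.0033, 0.46 without the 2 farthest mice). Bnip3 with Bnip3l had r = 0.52 (adjusted permutation p = 0.0363) and rho = 0.47 (adjusted permutation p = 0.116), with r = 0.49 without the 2 farthest mice. Bnip3 also had r = 0.66 with Sqstm1 (rho = 0.44, adjusted permutation p = 0.149), and r was 0.26 without the 2 EtOH-UA libraries of highest summed FPKM. With Phb2 it had r = 0.59 (rho = 0.46, adjusted permutation p = 0.127), and with Map1lc3b r = 0.53 (rho = 0.30, adjusted permutation p = 0.443). Without those 2 libraries these r were 0.19 and 0.15. Optn, Tfeb and Bcl2l13 had no pair past the threshold.

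**Figure D3:**
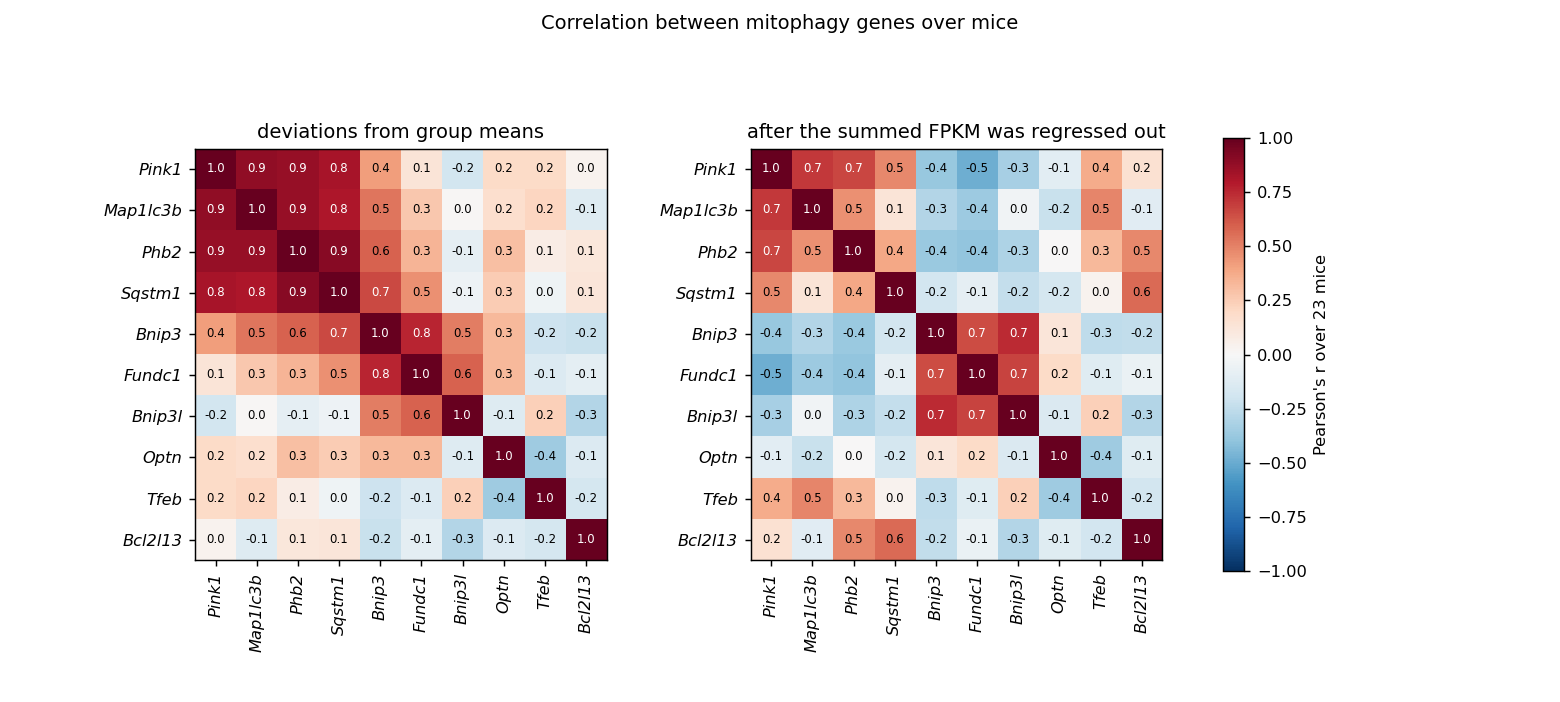
Pearson's r between the mitophagy genes over 23 mice (colour scale from −1 to 1, values to 1 decimal), for deviations of log2(FPKM + 0.1) from group means on the left and after the summed FPKM of the library was also regressed out on the right. The set Pink1, Map1lc3b, Phb2 and Sqstm1 and the receptors Bnip3, Fundc1 and Bnip3l form 2 blocks, and the receptor block has r of 0.65 to 0.75 on the right.

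The set of 4 genes followed the summed FPKM of the library. The correlation over the 23 mice was r = 0.93 for Sqstm1 (rho = 0.84, permutation p = 1e-05 for both, 0.87 without the 2 farthest mice) and r = 0.91 for Phb2 (rho = 0.86, permutation p = 1e-05 for both, 0.87 without the 2 farthest). It was 0.84 for Map1lc3b (rho = 0.71, 0.71 without the 2 farthest), 0.77 for Pink1 (rho = 0.73, 0.70 without them) and 0.76 for Bnip3 (rho = 0.61, 0.57 without them). Fundc1 (r = 0.52, adjusted permutation p = 0.0568, rho = 0.33) and Optn (r = 0.33, rho = 0.29) were intermediate. The r was 0.04 for Bnip3l, −0.06 for Tfeb and −0.08 for Bcl2l13. These are 10 of 90 relations of the 10 genes with the summed FPKM and 8 sets of marker genes, and the first 5 had adjusted permutation p-values of 0.0006 or lower for r and 0.0177 or lower for rho. Such a relation was common: 16.7% of 15300 genes had r of at least 0.7 with the summed FPKM, and 2.48% of genes had a higher r than Sqstm1. Genes with r of at least 0.7 had a median coding transcript of 1778 bases and 52.8% GC, beside 3107 bases and 50.3% over all, and those at the other end of the scale, with a negative r of the same size or beyond, 6768 bases and 46.2% GC. Of the 10 mitophagy genes, Tfeb had the highest GC content at 63.2%, with r near 0. Bcl2l13, at 49.3%, also had r near 0, and Bnip3, at 41.6%, had r = 0.76. The other GC values were 59.0% for Pink1, 56.8% for Phb2, 55.2% for Map1lc3b, 54.0% for Sqstm1, 50.7% for Optn, 41.9% for Bnip3l and 38.8% for Fundc1. The longest coding transcript was 6925 bases for Bcl2l13, 3259 for Bnip3l, 2673 for Sqstm1, 2633 for Map1lc3b and 2614 for Optn. It was 2375 bases for Pink1, 2342 for Tfeb, 1983 for Fundc1, 1756 for Bnip3 and 1318 for Phb2. The part of GC content, length or RNA quality in these relations was not tested.

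Once the summed FPKM was regressed out, r went from 0.52 to 0.75 for Bnip3 with Bnip3l, from 0.76 to 0.65 for Bnip3 with Fundc1 and from 0.59 to 0.67 for Bnip3l with Fundc1. In the other set all 6 values became lower. Pink1 went from 0.89 to 0.71 with Map1lc3b, from 0.87 to 0.67 with Phb2 and from 0.83 to 0.48 with Sqstm1. Sqstm1 went from 0.91 to 0.38 with Phb2 and from 0.81 to 0.13 with Map1lc3b, and Map1lc3b with Phb2 from 0.87 to 0.46. Bnip3 then had negative values with that set, from −0.19 with Sqstm1 to −0.38 with Pink1.

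**Figure D4:**
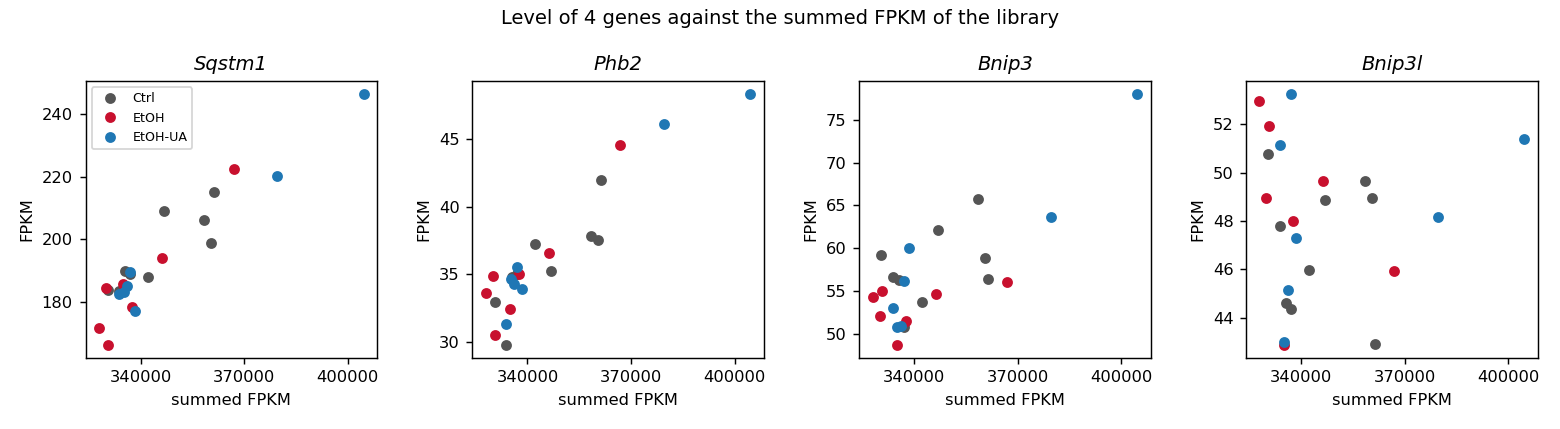
FPKM of Sqstm1, Phb2, Bnip3 and Bnip3l (y axes, not from 0) against the summed FPKM of the library (x axis), 1 point for each of the 23 mice, coloured by group. Sqstm1 and Phb2 rise along the whole axis, Bnip3 is highest in the EtOH-UA library at 404609, and Bnip3l shows no trend.

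The 2 EtOH-UA libraries of highest summed FPKM ranked first and second of the 7 EtOH-UA mice for 6 of the 10 genes. Sqstm1 stood at 246 and 220.1 FPKM in them against 177 to 189.7 in the other 5, Phb2 at 48.4 and 46.1 against 31.4 to 35.5, and Pink1 at 167 and 161 against 133 to 150.03. The same held for Bnip3, Map1lc3b and Optn. For Tfeb the library of highest sum was instead the lowest of the 7, at 1.65 FPKM.

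Of the marker sets of other cell types, oligodendrocyte genes moved with Tfeb. The correlation was r = 0.59 (permutation p = 0.0028, adjusted 0.0155 over the 90 relations) and rho = 0.55 (permutation p = 0.0074, adjusted 0.0417), with 0.57 without the 2 farthest mice and 0.59 after the summed FPKM was regressed out. All 10 oligodendrocyte markers were found, and 10 of 10 were higher in EtOH than in Ctrl mice (median log2 difference 0.11), 0 of them with an unadjusted limma p under 0.05. Their summed level ranged from 1136 to 2458 FPKM in Ctrl, from 1491 to 2165 in EtOH and from 1264 to 2564 in EtOH-UA mice, and none was at 0 in all mice. Their part in the level of Tfeb was not tested. The tie was not particular to Tfeb. Map1lc3b had r = 0.18 with the oligodendrocyte markers, and 0.69 after the summed FPKM was regressed out. Microglial markers moved with Map1lc3b (r = 0.84, rho = 0.81, permutation p = 1e-05 and 2e-05, 0.79 without the 2 farthest mice), and this was 0.55 after the summed FPKM was regressed out, with which the microglial markers themselves had r = 0.78. The summed level of the 10 microglial markers was 189.6 to 258 FPKM in Ctrl, 177 to 244 in EtOH and 185 to 282 in EtOH-UA mice. Of the 90 relations, 16 passed the threshold for both r and rho: 5 with the summed FPKM, 5 with complex I genes (the same genes, Pink1, Bnip3, Sqstm1, Map1lc3b and Phb2), 4 with microglial markers (those but Bnip3), 1 with endothelial markers (Map1lc3b) and 1 with oligodendrocyte markers. The share of all genes past this threshold was not counted. The complex I genes themselves had r = 0.97 with the summed FPKM, and once it was regressed out their r was 0.44 with Pink1, 0.42 with Phb2, −0.02 with Sqstm1, −0.00175 with Map1lc3b and −0.27 with Bnip3. Of 36 complex I genes, 0 were higher in EtOH against Ctrl mice and 36 in EtOH-UA against EtOH mice. The shares over all genes tested were 48.6% and 51.2%. After quantile normalization 1 and 34 of the 36 were higher, and with the summed FPKM as a covariate 8 and 18. Without the 2 EtOH-UA libraries of highest sum, 6 of 36 were higher in EtOH-UA against EtOH mice. Choroid plexus markers, which were higher in EtOH than in Ctrl mice for 12 of 12 genes, had no adjusted permutation p under 0.05 with any of the 10 genes, and r lay between −0.41 (Pink1) and 0.03 (Optn).

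The genes whose level over mice was most like each member's were found among 12903 genes averaging 1 FPKM or more, with group means removed. For Phb2 they were Get3 (r = 0.97), Ncaph2 and Cdc37, for Sqstm1 Chchd2 (0.96), Tsnax and Saraf, for Pink1 Klhdc3 (0.95), Idh3g and Ckb, and for Map1lc3b Slc48a1 (0.93) and Tsc22d4. For the receptors they were Mrpl1 (0.90), Tmem14a and Psmc6 with Bnip3, Zfp874a (0.84), Pip4p2 and Zfp759 with Bnip3l, and Smim8 (0.82), Smu1 and Tmed2 with Fundc1. Likeness was lower for Tfeb (Nkain1, 0.79, then Desi1 and Olfml1), Optn (Sumf2, 0.72, then Mettl16 and Fzd1) and Bcl2l13 (Stk32a, 0.70, then Det1 and Rxfp3). Phb2 had 2469 genes at r of 0.7 or more (19.1%), and Sqstm1 2394 (18.6%), so their closest genes stood in a large crowd. Tfeb had 2 such genes, and Optn and Bcl2l13 had 1 each.

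The other genes of the pathway were read from 6 lists with 114 genes, of which 113 passed the filter. None had a limma adjusted p under 0.05 in any comparison. In EtOH against Ctrl mice 39.8% of the 113 were higher, with a median log2 difference of −0.01, a share that was 55.8% after quantile normalization. At an unadjusted limma p under 0.05, 0 genes were higher and 3 lower (2.65%, beside 3.05% of all genes). These were Tbk1, the kinase of optineurin and p62 (20.8 ± 0.982 FPKM in 9 Ctrl and 19.6 ± 0.752 in 7 EtOH mice, mean ± SD), Uvrag, a partner of Beclin 1 (11.4 ± 0.430 and 10.9 ± 0.297), and Rragc, a GTPase that brings mTORC1 and TFEB to the lysosome (25.6 ± 1.11 and 24.1 ± 1.43). The differences of these genes are a few percent of their level.

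In EtOH-UA against EtOH mice 64.6% of the 113 genes were higher, with a median log2 difference of 0.03, and the share was 51.3% without the 2 EtOH-UA libraries of highest summed FPKM and 48.7% after quantile normalization. At an unadjusted limma p under 0.05, 0 were higher and 1 lower (0.885%, beside 3.27%), which was Stx17, the syntaxin that lets a closed autophagosome fuse with the lysosome (7.16 ± 0.705 FPKM in EtOH and 6.29 ± 0.758 in EtOH-UA mice, n = 7 each). In EtOH-UA against Ctrl mice 58.4% were higher (47.8% after quantile normalization and 37.2% without the 2 libraries of highest sum), with 1 higher and 3 lower at an unadjusted limma p under 0.05 (3.54%, beside 3.08%). Mfsd8, a lysosomal membrane protein, was at 7.26 ± 0.503 FPKM in Ctrl and 7.93 ± 0.531 in EtOH-UA mice. Among the lower genes, Ambra1, a regulator of Beclin 1, was at 15.4 ± 0.434 FPKM in Ctrl and 14.4 ± 1.07 in EtOH-UA mice, and Stx17 was at 6.94 ± 0.173 in Ctrl mice.

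By list, the genes of the PINK1 axis had 6 of 25 genes higher in EtOH than in Ctrl mice (11 of 25 after quantile normalization) and 18 of 25 higher with UA than with ethanol alone (14 of 25 after quantile normalization and 11 of 25 without the 2 libraries of highest sum), and its most abundant gene, Vdac1, an outer-membrane channel, was at 235, 231 and 237 FPKM in Ctrl, EtOH and EtOH-UA mice. Lysosome genes had 13 of 23 and 19 of 23 higher, and the latter became 11 of 23 both after quantile normalization and without the 2 libraries of highest sum. The 4 other Atg8 genes, relatives of LC3B, had 0 of 4 and 4 of 4 higher, with 2 of 4 in both after quantile normalization and 1 of 4 in the latter without the 2 libraries. Gabarapl1 was the most abundant of them at 339 ± 24.4, 316 ± 28.3 and 335 ± 35.4 FPKM (mean ± SD in Ctrl, EtOH and EtOH-UA mice), above Gabarapl2 (159, 158 and 167), Gabarap (83.6, 81.9 and 90.6) and Map1lc3a (69.1, 65.9 and 70.0). Core autophagy genes (16 of 33 and 17 of 33 higher) were near even. The TFEB family with its regulators had 6 of 14 and 8 of 14 higher, with 9 of 14 and 6 of 14 after quantile normalization and 11 of 14 in the latter without the 2 libraries. The other receptors and adaptors had 4 of 14 (9 of 14 after quantile normalization) and 7 of 14 higher, with Fkbp8, an outer-membrane receptor, at 136, 128 and 143 FPKM.

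**Figure D5:**
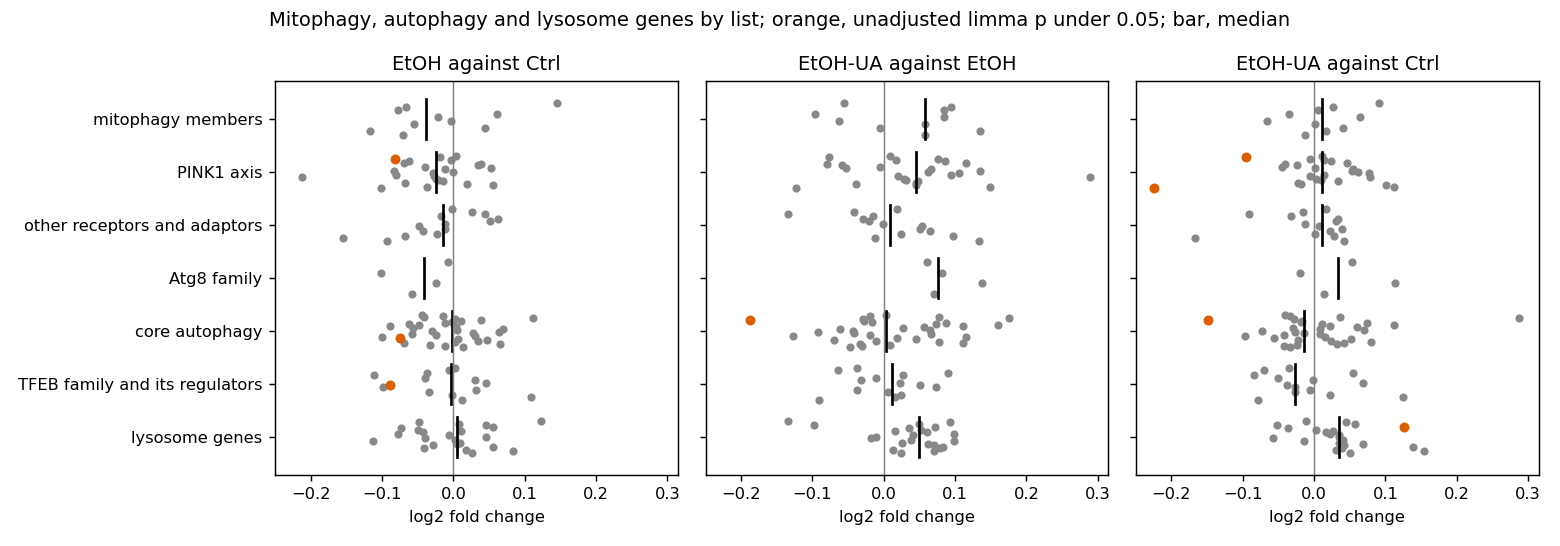
Log2 fold change (x axis) of the mitophagy genes and of the genes of 6 pathway lists (rows, 1 point for each gene) in the 3 comparisons, with the median of each list as a bar and genes at an unadjusted limma p under 0.05 in orange. Nearly all points lie within 0.2 of 0, and lysosome and Atg8 genes sit to the right of 0 in EtOH-UA against EtOH mice, where 11 of 23 and 2 of 4 were higher after quantile normalization.

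Since Bnip3 and Bnip3l are known to respond to hypoxia, 17 hypoxia genes were read beside them. In EtOH against Ctrl mice 10 of 17 were higher (median 0.01), and 1 of 17 was lower at an unadjusted limma p under 0.05, beside 3.05% of all genes past it in either direction, Hk2, a hexokinase (1.78 ± 0.247 FPKM in Ctrl and 1.45 ± 0.218 in EtOH mice). In EtOH-UA against EtOH mice 10 of 17 were higher (median 0.03, and 7 of 17 after quantile normalization), and 3 of 17 were so at an unadjusted limma p under 0.05, beside 3.27% of all genes, P4ha1, a subunit of collagen prolyl hydroxylase (mean 13.4 ± 1.60 FPKM with UA, log2 difference 0.16 ± 0.07 SE), Ankrd37 (3.36 ± 0.470 and 4.12 ± 0.703) and Egln1, the oxygen-sensing hydroxylase of HIF (23.6 ± 1.46 and 25.3 ± 1.44). In EtOH-UA against Ctrl mice 13 of 17 were higher (10 of 17 after quantile normalization), with P4ha1 higher and Hk2 lower at an unadjusted limma p under 0.05, beside 3.08% of all genes. None of these had a limma adjusted p under 0.05. The most abundant, Pgk1, an enzyme of glycolysis, was at 238, 232 and 242 FPKM in the 3 groups.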

How the data were processed

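Hippocampal RNA of 9 Ctrl, 7 EtOH and 7 EtOH-UA mice was sequenced. The authors quantified transcripts with RSEM against mm10 and deposited FPKM to 2 decimals in one table. Their processing notes list HISAT2 2.1.0, which the methods do not name, Bowtie2 2.2.5 and RSEM 1.2.8. The supplement of the paper lists the same versions of Bowtie2 and RSEM, while its methods name later ones. The count test of the methods could not be applied to FPKM. Columns were assigned to groups by name, and no 2 columns were identical. The p-values set differences and correlations against the variation between mice. Mice shared cages according to the paper, and cage is not in the labels, so mice were taken as independent.

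Values were analysed as log2(FPKM + 0.1), which understates changes of low genes. The 15985 genes averaging 0.1 FPKM or more went into a single limma model with a term per group (limma 3.58.1, R 4.3.3, eBayes with trend, Benjamini-Hochberg over all genes tested, threshold 0.05). Single genes were also compared by 2-sided exact permutation tests over all 11440 splits against Ctrl and 3432 splits otherwise (Python 3.11.15). Correlations used deviations from group means and 100000 permutations, adjusted within 90 relations and within 45 pairs. Coding transcripts and overlaps came from GENCODE release M21. The pipeline was tested on simulated data with independent noise for each gene, without variation shared by a library. In EtOH-UA against EtOH mice 13% of 200 genes changed by 0.25 on the log2 scale were recovered, and 66% at 0.5. The highest difference of the 10 mitophagy genes there was 0.134, so 0 genes called does not exclude changes of that size. The depth estimate covers counting error only.

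The members and gene lists were chosen with earlier results of these data known. Named were all members, list genes with an unadjusted limma p under 0.05 (at most 3 per list and comparison), the most abundant gene of a list, the other Atg8 genes and the 3 genes most like each member. Of these, 2 genes are not reported here. Alternatives were other pseudocounts, filters, scalings, samples and variance settings and each mouse left out. The summed FPKM as a covariate and the fit without the 2 EtOH-UA libraries of highest summed FPKM were added after seeing the data.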

Additional observations from a re-analysis of the deposited data

How the results depend on the processing

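Counts of mitophagy genes and of pathway genes with a limma adjusted p under 0.05 were 0 in all 24 to 26 settings of each comparison, leaving out each mouse included. No paired analysis was possible because the columns of the table carry mouse numbers and not the replicate numbers of the labels. Equal replicate numbers would not by themselves make pairs. The paper describes random assignment of mice to groups and gives no matching of single mice between groups. Many differences were smaller than their standard error. Several differences changed sign between settings, among them that of Sqstm1 in EtOH-UA against EtOH mice (0.08 ± 0.07 SE), and the cause was not tested. On the log2 scale, quantile normalization gave −0.0209 for Pink1 in EtOH-UA against EtOH mice, and −0.00539 for Fundc1 and −0.0229 for Sqstm1 in EtOH-UA against Ctrl mice. Upper-quartile scaling gave 0.01002 for Bcl2l13 in EtOH against Ctrl mice, and −0.00482 for Fundc1 and −0.000433 for Sqstm1 in EtOH-UA against Ctrl mice. With the summed FPKM as a covariate Phb2 was 0.0352 in EtOH against Ctrl mice, Pink1 −0.0180, Sqstm1 −0.000411 and Phb2 −0.0287 in EtOH-UA against EtOH mice, and Bnip3 −0.0202, Fundc1 −0.0171, Sqstm1 −0.0366 and Map1lc3b −0.0184 in EtOH-UA against Ctrl mice. Without the 2 EtOH-UA libraries of highest summed FPKM, Pink1 was −0.00849, Fundc1 −0.000967, Sqstm1 −0.0142, Phb2 −0.0512 and Tfeb 0.0174 in EtOH-UA against EtOH mice, and Bnip3 −0.0921, Fundc1 −0.0565, Sqstm1 −0.0920, Map1lc3b −0.0634 and Phb2 −0.0721 in EtOH-UA against Ctrl mice, where the median of the 10 genes was −0.0683. With each mouse left out in turn, the sign changed at least once for Phb2 (−0.0777 to 0.0131) and Bcl2l13 (−0.0207 to 0.0137) in EtOH against Ctrl mice, for Bnip3l (−0.0342 to 0.0235) and Tfeb (−0.159 to 0.0128) in EtOH-UA against EtOH mice, and for Pink1 (−0.0446 to 0.0126), Bnip3 (−0.0528 to 0.0505), Fundc1 (−0.0459 to 0.0215), Sqstm1 (−0.0483 to 0.0309) and Map1lc3b (−0.0311 to 0.0539) in EtOH-UA against Ctrl mice. The depth is an estimate, and for Tfeb counting error is a large part of the spread.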
